A study of Mus musculus with 19 samples.

Results

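The 9 genes described here encode enzymes that convert pyruvate or can refill the tricarboxylic acid cycle. They are pyruvate carboxylase (Pcx), the malic enzymes (Me1, Me2 and Me3), the alanine transaminases (Gpt and Gpt2), the aspartate transaminases (Got1 and Got2) and glutamate dehydrogenase (Glud1). They were chosen by enzyme name and matched by symbol, and all 9 were found among the 55536 genes counted. The libraries came from mouse ventricle RNA depleted of ribosomal RNA. KO mice had lost Mpc1, which encodes a subunit of the carrier, in the adult heart after the deletion was induced, and wild-type (WT) mice were the controls. The groups were KO-8 (MPC1CKO, 8 weeks after induction, 4 libraries), WT-8 (wild type, 8 weeks, 5 libraries), KO-16 (MPC1CKO, 16 weeks, 5 libraries) and WT-16 (wild type, 16 weeks, 5 libraries). The strain, the age at induction, the Cre driver and the inducing agent, and whether the wild-type mice received that agent or carried Cre, were not given in the sources used here. The labels do not say that each library is a separate animal, so p-values measure the spread between libraries, which may in part be technical.

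Pyruvate normally enters the mitochondrial matrix through the carrier, a complex of the MPC1 and MPC2 proteins, and there becomes acetyl-CoA or, through pyruvate carboxylase, oxaloacetate. Carbon can also cross the inner membrane as alanine, malate, aspartate or glutamate. An alanine transaminase can convert pyruvate to alanine on one side, and its isoenzyme can convert alanine back on the other. A malic enzyme of the matrix can make pyruvate there from malate. In the heart the aspartate transaminases are also part of the malate-aspartate shuttle, which carries the reducing equivalents of cytosolic NADH into the matrix.

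Gpt2 and Got1 were the members that passed the test at 8 weeks, and the stretch before the start site of each is shown for that reason. Both sequences are from RefSeq on GRCm38.p6, read 5′ to 3′ on the gene's strand, and end at the last base before the annotated start. Gpt2 lies on the plus strand at chr8:85492326-85492575 and Got1 on the minus strand at chr19:43524606-43524855. Capitals mark matches, on either strand, to any of 7 motifs that were searched.
Gpt2: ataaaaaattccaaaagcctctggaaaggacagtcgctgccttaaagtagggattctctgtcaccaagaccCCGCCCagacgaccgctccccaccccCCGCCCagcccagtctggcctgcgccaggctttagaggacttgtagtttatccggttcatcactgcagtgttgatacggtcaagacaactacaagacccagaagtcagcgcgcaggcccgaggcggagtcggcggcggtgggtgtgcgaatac
Got1: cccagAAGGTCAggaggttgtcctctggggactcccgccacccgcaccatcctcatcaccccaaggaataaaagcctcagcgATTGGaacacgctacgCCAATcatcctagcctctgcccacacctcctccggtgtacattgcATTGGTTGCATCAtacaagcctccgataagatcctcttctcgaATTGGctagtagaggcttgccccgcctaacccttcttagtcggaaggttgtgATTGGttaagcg
The motifs were the core of the C/EBP-ATF response element (TGATGNAA), the cAMP response element (TGACGTCA), the estrogen-related receptor element (AAGGTCA), the E-box (CACGTG), the GC box (GGGCGG), the CCAAT box (CCAAT) and the TATA box (TATAAA). The Gpt2 stretch held GC boxes at positions -179 and -153, both on the other strand, and no other motif searched. The Got1 stretch held a match to the C/EBP-ATF core at -102, directly after a CCAAT box at -107, and no match in it overlapped another. It also held the receptor element at -245 and CCAAT boxes at -168, -152, -64 and -12. Of 32851 RefSeq promoter windows of this length, 3.45% held the C/EBP-ATF core, 1.55% the cAMP response element, 4.08% the receptor element, 6.02% the E-box, 32.74% the GC box, 33.85% the CCAAT box and 12.37% the TATA box. These matches were not limited to the members that passed. The stretch of Me3, which did not pass at 8 weeks, held the C/EBP-ATF core at -34. Pcx, Me1 and Glud1 did not pass then either, and their stretches held GC boxes. A match describes letters, and binding was not measured.

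Library totals ran from 16.53 to 19.47 M counted read pairs (M for mega) in KO-8, 17.42 to 27.52 M in WT-8, 9.538 to 26.91 M in KO-16 and 8.632 to 19.68 M in WT-16. An 18S ribosomal RNA gene took 1.71% to 30% of the counts in KO-16 and 6.88% to 39.1% in WT-16, against at most 0.0666% at 8 weeks. Time and library quality thus cannot be told apart, and KO was compared with WT within each time. At 16 weeks quality also differed between KO and WT, with 4 WT-16 and 2 KO-16 libraries over 20% 18S. Comparing within that time does not remove this. The common coefficient of variation between libraries was 0.093 at 8 weeks and 0.228 at 16 weeks. Transcripts of the Y chromosome marked replicate 4 of KO-16 and replicate 5 of WT-16 as male. Mpc1 had 8.41 to 12 CPM (counts per M counts of a library, scaled with TMM factors) in KO-8 and 63.6 to 82.3 in WT-8, and 9.03 to 26.2 CPM in KO-16 and 61.6 to 83.9 in WT-16. Mpc1 thus lay below every WT library of the same time in every KO library, with log2 fold changes of -2.77 (SE 0.10) at 8 weeks and -2.21 (SE 0.25) at 16 weeks. The markers of cardiomyocytes summed to 34900 to 41300 CPM in KO-8 and 39500 to 42800 in WT-8, and to 25400 to 44600 CPM in KO-16 and 41700 to 49200 in WT-16.

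In wild-type ventricle the aspartate transaminases were by far the most abundant of these transcripts. Per kilobase of exon, WT-8 libraries had 135 ± 4.14 CPM of Got1 and 57.0 ± 1.48 of Got2 (SD, n = 5), followed by Glud1 at 16.5 ± 0.776 and Me1, the cytosolic malic enzyme, at 8.86 ± 1.08 CPM per kilobase. The ranges of these 4 genes did not overlap. Gpt (4.5 ± 0.59 CPM per kilobase) and Gpt2 (4.16 ± 0.291) overlapped each other, as did Me3 (3.59 ± 0.139) and Pcx (3.51 ± 0.229). Me2, the mitochondrial malic enzyme that can use NAD, was lowest at 0.874 ± 0.0882 CPM per kilobase. The 4 most abundant members and their order were the same in KO-8, KO-16 and WT-16 on this scale. The exon length in the files is 14624 bases for Me3 and 7252 for Me2, against 4485 and 2638 bases in their longest protein-coding transcripts. With the transcript lengths Me3 had 11.7 CPM per kilobase in WT-8, above Me1 at 10.4.

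At 8 weeks Gpt2, the mitochondrial alanine transaminase, fell in KO ventricles, and Got1, the cytosolic aspartate transaminase, rose. These were 2 of the 9 members, and among all 15173 genes tested 8.21% were called at an adjusted p under 0.05, so a count this small is not by itself a result about the group. Groups without overlap were seen for 3 of the 9 members, Gpt2, Got1 and Got2, against 10.9% of all genes. At 16 weeks 0 of the 9 members were called in the comparison of the 16-week libraries (edgeR quasi-likelihood test), beside 2.83% of 12597 genes. No member had groups without overlap, beside 4.68% of genes. In the edgeR test 3 members had an unadjusted p under 0.05, as did 3198 of the 12597 genes. DESeq2 called 2 members and 1166 genes, limma-voom 0 and 332, and limma-voom with quality weights 3 and 2514. The largest estimates at 16 weeks were those of Gpt2, at -0.83, and of Me2, at 0.71, and neither passed.

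**Figure D1:**
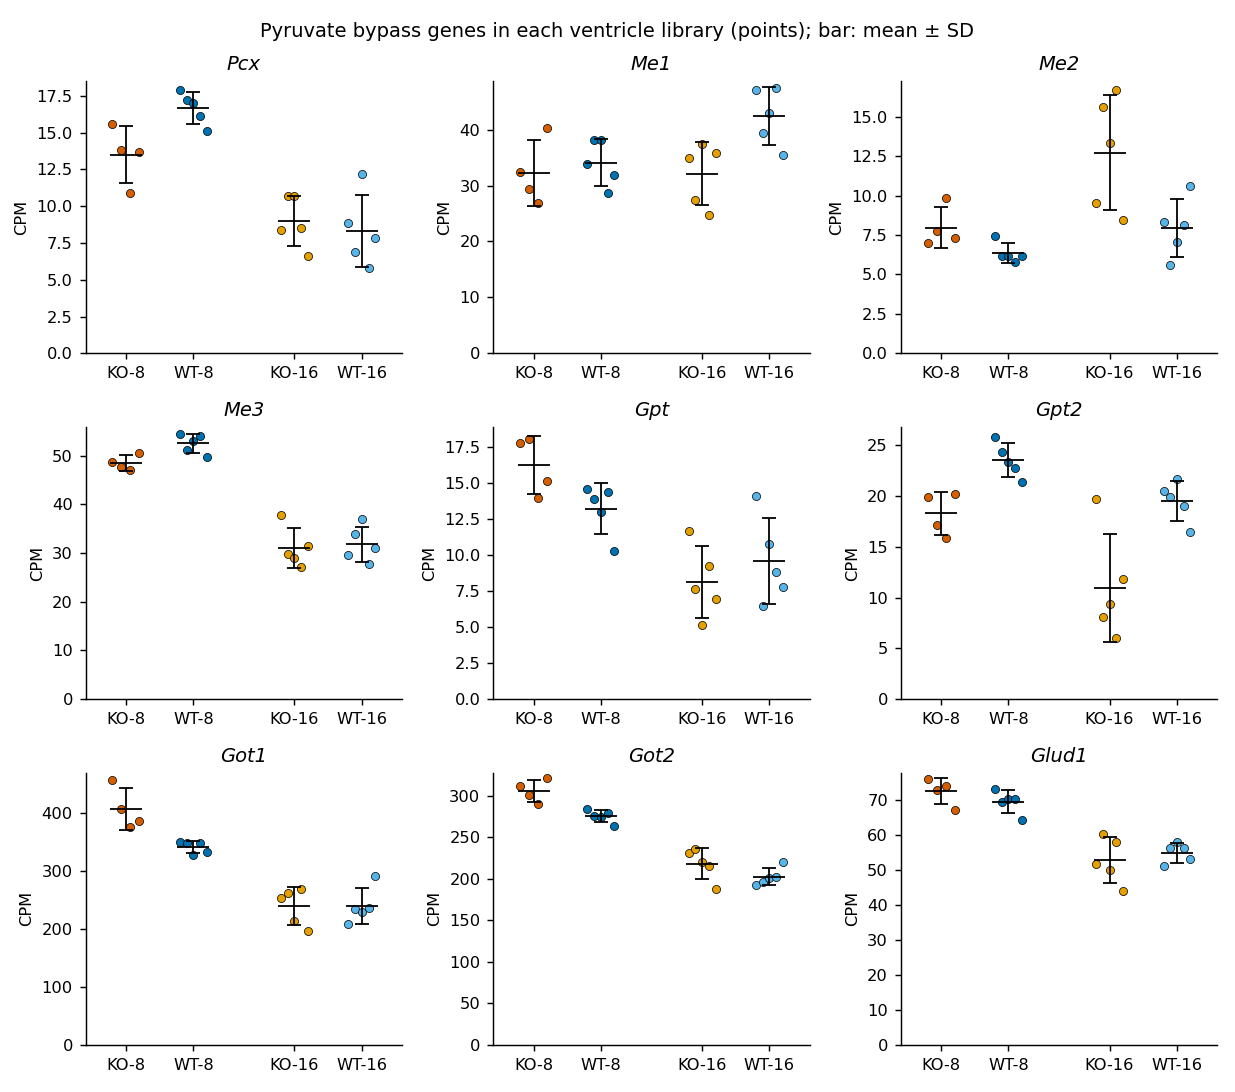
CPM of the 9 genes in each library (points), with the mean and SD of each group (bars); the vertical axes start at 0 and differ between genes. At 8 weeks all KO libraries of Gpt2 lie below, and all KO libraries of Got1 and Got2 above, the WT libraries, and at 16 weeks the groups overlap for every gene.

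Alanine transaminases convert pyruvate and glutamate to alanine and 2-oxoglutarate and back. Gpt2 (ENSMUSG00000031700, GRCm38 chr8:85492576-85527560, plus strand) had 19.9, 17.1, 15.9 and 20.2 CPM in KO-8, against 25.8, 24.3, 23.3, 22.8 and 21.4 CPM in WT-8. Every KO-8 library lay below every WT-8 library. The log2 fold change was -0.35 (SE 0.08, 95% interval -0.51 to -0.19), a fall of 21.6%, with adjusted p = 0.0123 in edgeR's quasi-likelihood test. At 16 weeks Gpt2 had 19.7, 8.06, 9.37, 5.98 and 11.8 CPM in KO-16, against 20.5, 19.9, 21.7, 19 and 16.5 CPM in WT-16. Replicates 2 to 5 of KO-16 lay below all WT-16 libraries, while replicate 1 lay within them. The log2 fold change of -0.83 (SE 0.25, 95% interval -1.37 to -0.28) did not pass (edgeR, adjusted p = 0.0777). Without replicate 1 of KO-16 it was -1.16 and passed (edgeR, adjusted p = 0.00157), and over all 26 alternatives it stayed negative, between -1.16 and -0.68, and passed in 5.

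Gpt, the cytosolic isoenzyme (ENSMUSG00000022546, chr15:76695716-76699686, plus strand), had a positive estimate at 8 weeks. It had 17.8, 18.1, 14 and 15.2 CPM in KO-8, against 14.6, 13.9, 13, 14.4 and 10.3 CPM in WT-8. The 2 groups overlapped only through replicate 3 of KO-8, which lay below 2 WT-8 libraries. Its log2 fold change was 0.31 (SE 0.10, edgeR adjusted p = 0.0816). In the later libraries Gpt ran from 5.12 to 11.7 CPM in KO-16 and from 6.50 to 14.1 CPM in WT-16, with a log2 fold change of -0.23 (SE 0.24, edgeR adjusted p = 0.562).

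The aspartate transaminases interconvert aspartate and 2-oxoglutarate with oxaloacetate and glutamate. Got1 (ENSMUSG00000025190, chr19:43499752-43524605, minus strand), the cytosolic enzyme, had 457, 408, 376 and 387 CPM in KO-8, against 351, 349, 328, 348 and 333 CPM in WT-8. All KO-8 libraries lay above all WT-8 libraries, and the log2 fold change was 0.26 (SE 0.06, 95% interval 0.14 to 0.39; edgeR adjusted p = 0.0146), a rise of 19.9%. Its 16-week values were 254, 263, 214, 270 and 196 CPM in KO-16, against 208, 234, 229, 237 and 291 CPM in WT-16. These ranges lay over each other, and the log2 fold change was 0.00 (SE 0.13, 95% interval -0.27 to 0.28; edgeR adjusted p = 0.99). The 16-week interval includes the 8-week estimate.

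Got2 (ENSMUSG00000031672, chr8:95864134-95888547, minus strand), the mitochondrial aspartate transaminase, had 311, 301, 290 and 321 CPM in KO-8, against 284, 275, 274, 279 and 264 CPM in WT-8. The groups did not overlap, but the log2 fold change of 0.16 (SE 0.05, edgeR adjusted p = 0.0511) did not pass. It passed in 6 of 19 alternatives, among them DESeq2 and limma-voom. At 16 weeks Got2 ran from 188 to 236 CPM in KO-16 and from 193 to 220 CPM in WT-16 (log2 fold change 0.11, SE 0.10, edgeR adjusted p = 0.499). A pseudogene, Got2-ps1, shares exact runs of up to 315 bases with Got2 and had 0.958% of its counts.

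Malic enzymes convert malate to pyruvate and make NADPH or NADH. Me1 (ENSMUSG00000032418, chr9:86581371-86695953, minus strand), the cytosolic NADP-dependent enzyme, had 35.0, 27.5, 37.4, 24.8 and 35.9 CPM in KO-16, against 47.0, 39.4, 43.0, 47.4 and 35.4 CPM in WT-16. Replicate 5 of WT-16, a male library, lay inside the KO-16 range and the other WT-16 libraries above it. KO-16 and WT-16 differed by -0.40 on the log2 scale (SE 0.14, 95% interval -0.69 to -0.11; edgeR adjusted p = 0.101). At 8 weeks Me1 ran from 26.8 to 40.3 CPM in KO-8 and from 28.6 to 38.2 CPM in WT-8, with a log2 fold change of -0.07 (SE 0.11, edgeR adjusted p = 0.763).

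Me2 (ENSMUSG00000024556) lay the other way from Me1 at 16 weeks. It had 9.53, 15.6, 13.3, 16.7 and 8.47 CPM in KO-16, against 8.34, 5.60, 7.08, 8.15 and 10.6 CPM in WT-16. Replicates 2, 3 and 4 of KO-16 lay above all WT-16 libraries, and replicates 1 and 5 within their range. The log2 fold change was 0.71 (SE 0.22, 95% interval 0.24 to 1.18; edgeR adjusted p = 0.079). It passed without replicate 1 (0.81, edgeR adjusted p = 0.028) or without replicate 5 of KO-16 (0.82, edgeR adjusted p = 0.0263). Without replicate 2, 3 or 4 of KO-16 it was 0.62, 0.70 and 0.60 and did not pass. Over all 26 alternatives it stayed positive, between 0.57 and 0.86, and passed in 6. At 8 weeks Me2 had 6.96, 7.78, 9.84 and 7.28 CPM in KO-8, against 7.44, 6.15, 6.19, 5.77 and 6.14 CPM in WT-8. Replicate 1 of WT-8 lay above 2 KO-8 libraries, and the log2 fold change of 0.34 (SE 0.11, edgeR adjusted p = 0.081) did not pass. As few as 31 read pairs lay behind a library's Me2 value in WT-16, which limits these estimates.

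Me3 (ENSMUSG00000030621, chr7:89632392-89854359, plus strand), the mitochondrial NADP-dependent enzyme, had the smallest difference of the malic enzymes at 16 weeks. Its values were 47.0 to 50.6 CPM in KO-8 and 49.7 to 54.5 CPM in WT-8 (log2 fold change -0.10, SE 0.05, edgeR adjusted p = 0.219). At 16 weeks they were 27.1 to 37.9 CPM in KO-16 and 27.8 to 36.9 CPM in WT-16 (log2 fold change -0.04, SE 0.12, 95% interval -0.30 to 0.22; edgeR adjusted p = 0.878).

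Pcx (ENSMUSG00000024892, chr19:4510472-4621752, plus strand), the biotin enzyme that makes oxaloacetate from pyruvate in the matrix, had 15.6, 13.8, 10.9 and 13.7 CPM in KO-8, against 17.9, 17.2, 17, 16.1 and 15.1 CPM in WT-8. Replicate 1 of KO-8 lay above the lowest WT-8 library, and the other KO-8 libraries lay below them all. The log2 fold change of -0.29 (SE 0.09, 95% interval -0.48 to -0.11) did not pass (edgeR, adjusted p = 0.0534), and it passed without replicate 1 of KO-8 (-0.36, edgeR adjusted p = 0.0284), without replicate 5 of WT-8 (-0.33, edgeR adjusted p = 0.0418) and in 3 more of the 19 alternatives. At 16 weeks Pcx had 8.41, 10.7, 10.7, 8.54 and 6.64 CPM in KO-16, against 8.84, 6.86, 12.2, 5.82 and 7.81 CPM in WT-16, and the highest value was that of replicate 3 of WT-16. The log2 fold change was 0.10 (SE 0.21, edgeR adjusted p = 0.784), and 0.33 (edgeR, adjusted p = 0.31) without that library. Replicate 3 of WT-16 also held fat transcripts. Its Adipoq was 8.83 CPM, against at most 1.49 in the other libraries, its Ucp1 9.52 CPM against at most 0.0641, and its brown adipocyte markers summed to 29.1 CPM. That sum was 9.30 to 14.5 CPM in KO-16 and 9.21 to 12.9 in the other WT-16 libraries. The part of fat in the Pcx value was not tested.

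Glud1 (ENSMUSG00000021794, chr14:34310727-34345265, plus strand), which releases ammonia from glutamate to give 2-oxoglutarate, had 67.2 to 75.9 CPM in KO-8 and 64.3 to 73.2 CPM in WT-8 (log2 fold change 0.07, SE 0.05, 95% interval -0.05 to 0.19; edgeR adjusted p = 0.482). Its 16-week range was 44.0 to 60.4 CPM in KO-16 and 51.0 to 58.1 CPM in WT-16 (log2 fold change -0.05, SE 0.11, 95% interval -0.28 to 0.18; edgeR adjusted p = 0.791). Glud1 was among the members with the narrowest intervals at both times.

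**Figure D2:**
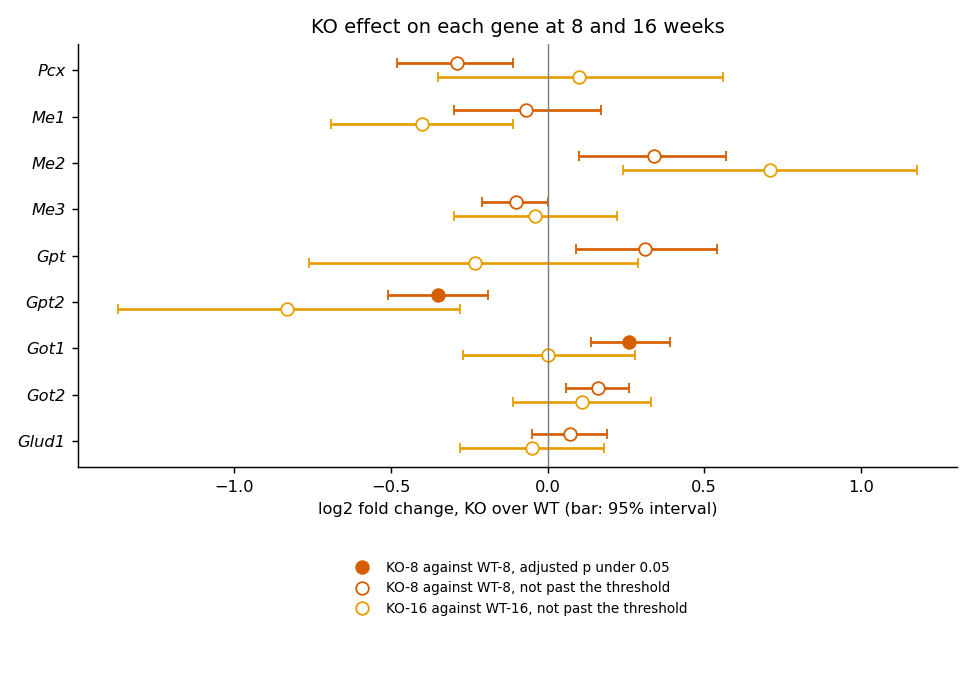
Log2 fold changes of KO over WT (horizontal axis) for each gene (rows) at 8 weeks (upper of each pair) and 16 weeks (lower), with 95% intervals; filled points passed an adjusted p of 0.05. Gpt2 at -0.35 and Got1 at 0.26, both at 8 weeks, are the filled points, and the 16-week intervals are wider than the 8-week ones for all 9 genes.

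Markers of some other cells also differed between KO and WT. Fibroblast markers summed to 549 to 823 CPM in KO-8 and 458 to 508 in WT-8, and to 459 to 1200 CPM in KO-16 and 355 to 455 in WT-16. Of the fibroblast markers 3 of 6 tested rose at 8 weeks and 2 of 5 tested rose at 16 weeks, and none fell. Among all genes 652 of 15173 rose at 8 weeks and 237 of 12597 at 16 weeks. Endothelial markers summed to 532 to 602 CPM in KO-8 and 473 to 519 in WT-8, and to 451 to 668 CPM in KO-16 and 416 to 463 in WT-16. Of the endothelial markers 2 of 5 tested rose at 8 weeks and 1 of 5 rose at 16 weeks, and none fell. Of the cardiomyocyte markers 1 of 7 tested fell at 8 weeks and 0 of 7 at 16 weeks, and none rose. Of the adipocyte markers 1 of 2 tested rose at 8 weeks, and none fell. Macrophage markers overlapped at both times, and 0 of 5 tested rose or fell at either. They summed to 103 to 106 CPM in KO-8 and 93.1 to 112 in WT-8, and to 70.8 to 114 CPM in KO-16 and 73.1 to 96.5 in WT-16. Fewer cells of a type and less RNA per cell cannot be told apart in whole ventricle, and the part of cell makeup in the members' values was not tested. Within KO-16 the libraries also differed. Replicates 2, 3 and 4 had cardiomyocyte marker sums of 25400, 27800 and 30600 CPM, against 44600 in replicate 1 and 39600 in replicate 5. The same 3 libraries had the lowest Gpt2 and the highest Me2 in KO-16. Each male library, replicate 4 of KO-16 and replicate 5 of WT-16, had the lowest Me1, the lowest Gpt2 and the highest Me2 of its group. With sex as a covariate the 16-week log2 fold changes were -0.40 for Me1, 0.71 for Me2 and -0.86 for Gpt2. Their edgeR adjusted p-values were 0.0704, 0.067 and 0.0647, so none passed. Erythroid markers summed to 1120 CPM in replicate 3 and 557 in replicate 4, while replicates 1, 2 and 5 had 106, 209 and 47.3 CPM and WT-16 libraries 53.1 to 131 CPM. At 8 weeks that sum was 255 to 567 CPM in KO-8 and 430 to 954 in WT-8. Then 1 of 5 erythroid markers fell, beside 593 of all 15173 genes. Atrial cardiomyocyte markers summed to 516 CPM in replicate 4 of KO-16, 98.8 in replicate 1 and 1.73 to 41 in the other KO-16 libraries, against 220 in replicate 3 of WT-16 and 1.01 to 69.5 in the other WT-16 libraries. At 8 weeks the atrial sum was at most 2.36 CPM in KO-8 and 6.41 in WT-8. Replicate 1, whose Gpt2 lay within the wild-type range, had the most Mpc1 of the KO-16 libraries (26.2 CPM) and the lowest fibroblast sum (459 CPM).

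**Figure D3:**
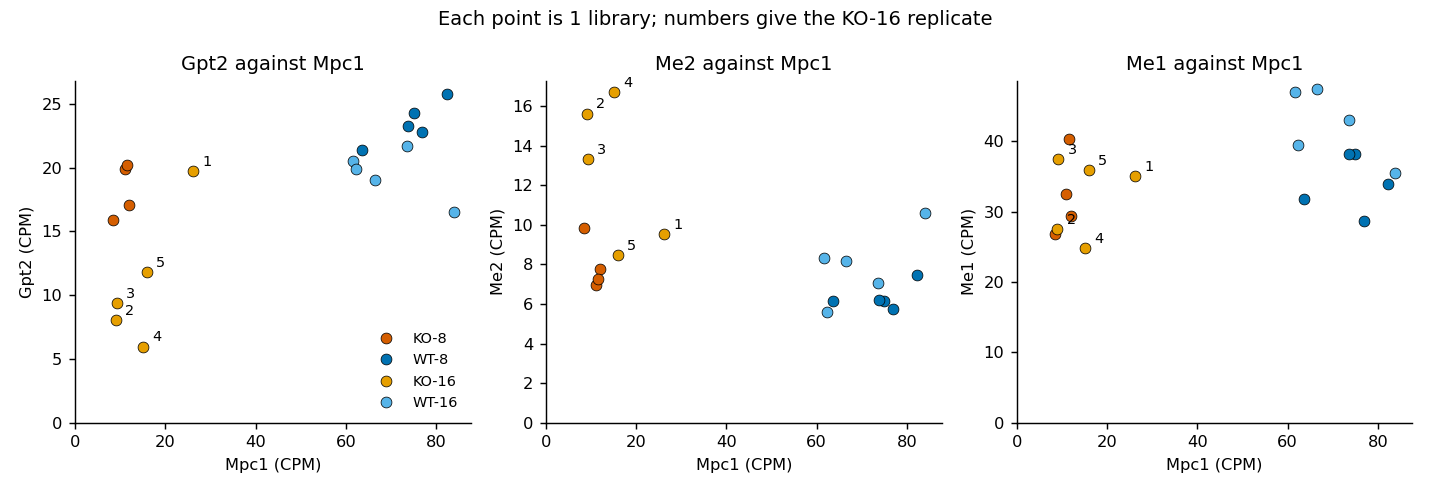
Gpt2, Me2 and Me1 (vertical axes, CPM) against Mpc1 (horizontal axis, CPM), with 1 point per library and the KO-16 replicates numbered; all axes start at 0. Replicate 1 of KO-16 stands apart at 26.2 CPM of Mpc1 with 19.7 CPM of Gpt2, and replicates 2, 3 and 4 have 13.3 to 16.7 CPM of Me2.

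The 16-week calls depended on how the spread was estimated. Fitted to all 19 libraries with a spread shared by both times, the same 16-week contrast called Gpt2 (-0.84, edgeR adjusted p = 0.00894), Me2 (0.72, edgeR adjusted p = 0.011) and Me1 (-0.40, edgeR adjusted p = 0.0348), 3 of the 9 members, where 20.5% of all 15503 genes were called. That fit called no member at 8 weeks, where the libraries spread less. The change of the KO effect between times was tested with an interaction term in this fit, and 0% of genes and no member passed (edgeR; 2000 genes had an unadjusted p under 0.05, DESeq2 called 30 genes, limma-voom 0 and limma-voom with quality weights 527, and none of them a member). The largest differences of effect, 16 weeks minus 8 weeks, were -0.54 for Gpt (95% interval -1.11 to 0.03, edgeR adjusted p = 0.402), -0.48 for Gpt2 (95% interval -1.07 to 0.11, edgeR adjusted p = 0.465) and 0.40 for Me2 (95% interval -0.13 to 0.93, edgeR adjusted p = 0.503). For Got1, called at 8 weeks alone, the difference was -0.25 (95% interval -0.56 to 0.05, edgeR adjusted p = 0.451). None of the effects was therefore shown to differ between the times, and without replicate 1 of KO-16 the difference for Gpt2 was -0.82 and passed (edgeR, adjusted p = 0.0202).

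The balance of isoenzymes within a family does not depend on how libraries are scaled. The share of the mitochondrial Gpt2 in the length-scaled counts of the alanine transaminases was 36.87%, 32.92%, 37.17% and 40.98%, against 47.97%, 47.73%, 48.21%, 45.24% and 51.93% in WT-8. The groups did not overlap, and the means of 36.99% ± 3.30 (SD, n = 4) and 48.21% ± 2.40 (SD, n = 5) differed by -11.23 points (exact two-sided permutation p = 0.0159, the smallest that 4 against 5 libraries can give). At 16 weeks the shares were 46.72%, 35.47%, 48.83%, 25.15% and 46.84% in KO-16, against 42.98%, 61.43%, 51.25%, 52.85% and 52.46% in WT-16. They overlapped through replicate 1 of WT-16, and differed by -11.59 points (exact permutation p = 0.0635).

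Among the malic enzymes the share of Me1 was 67.86% ± 5.63 in KO-16 and 76.94% ± 3.26 in WT-16 (SD, n = 5 each), a difference of -9.07 points (exact permutation p = 0.0159). That of Me2 was 14.73% ± 5.48 in KO-16 and 7.73% ± 2.16 in WT-16, a difference of 7 points (exact permutation p = 0.0238). Me3 held 17.41% ± 1.88 in KO-16 and 15.33% ± 2.38 in WT-16 (exact permutation p = 0.143). These shares used the exon lengths in the files, and their size depends on that choice. With the lengths of the longest protein-coding transcripts Me1 held a smaller part. Me1, Me2 and Me3 then had 9.75, 4.83 and 6.92 CPM per kilobase in KO-16, and 12.9, 3.01 and 7.09 in WT-16. At 8 weeks Me2 held 8.75% ± 2.21 in KO-8 (SD, n = 4) and 6.58% ± 0.68 in WT-8 (SD, n = 5; exact permutation p = 0.0794), and Me1 and Me3 differed by -1.18 and -0.99 points. The share of Got2 in the aspartate transaminases was 28.40% ± 1.67 in KO-8 and 29.77% ± 0.49 in WT-8 (exact permutation p = 0.143), and 32.54% ± 2.07 in KO-16 and 30.91% ± 1.61 in WT-16 (exact permutation p = 0.198). None of the 10 comparisons passed after adjustment over the 10, where the lowest adjusted exact permutation p was 0.0794 for Gpt2 at 8 weeks and Me1 and Me2 at 16 weeks. At 8 weeks the smallest possible exact permutation p, 0.0159, could pass this adjustment only if several other comparisons were as low. The shares of the malic enzymes in a library are also not independent of each other. The protein-coding transcripts of isoenzymes shared exact runs of at most 20 bases, shorter than the reads of 51 bases, so an exactly matching read could not fall on both.

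**Figure D4:**
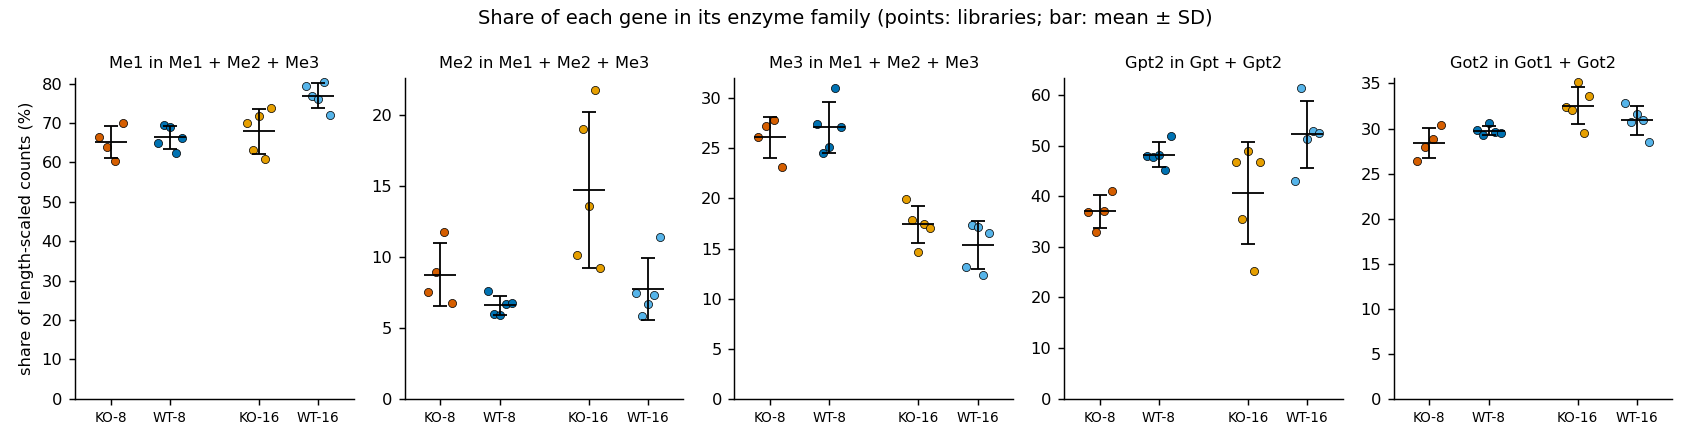
Share of each gene in the counts per exon length of its enzyme family (vertical axis, percent, starting at 0) in each library (points), with the mean and SD of each group (bars). Gpt2 is at 32.92% to 40.98% in KO-8 and 45.24% to 51.93% in WT-8, and Me2 is at 9.23% to 21.76% in KO-16 and 5.80% to 11.41% in WT-16.

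Around the 9 genes, 93 genes of neighbouring pathways were counted in 8 lists, some genes in more than one. In these lists a gene is counted as risen or fallen only if it passed the edgeR test at an adjusted p under 0.05. At 8 weeks 85 were tested and 6 rose and 9 fell, where 8.21% of all genes were called. The median log2 fold change was -0.01 (all genes 0.00). At 16 weeks 79 were tested and 2 rose and 5 fell, where 2.83% of all genes were called, and the median was -0.06 (all genes 0.01). The deleted gene, Mpc1, is in these counts. The lists were chosen with earlier results of these data known, so the counts are not a test of the lists. For the entry and use of pyruvate and lactate, 3 of 20 tested rose and 2 fell at 8 weeks, and 0 of 19 rose and 2 fell at 16 weeks, Mpc1 among those that fell at both times. Pdhb, a pyruvate dehydrogenase subunit, had 372 ± 41.8 CPM in KO-8 (SD, n = 4) and 258 ± 13.5 in WT-8 (SD, n = 5; log2 fold change 0.54, SE 0.07, edgeR adjusted p = 0.00057). Pkm, pyruvate kinase, and Pdhx, of the same complex as Pdhb, were the others that rose at 8 weeks (log2 fold changes 0.31 and 0.24), and both were named after their values were seen. Slc16a7, a monocarboxylate transporter, fell at 8 weeks (log2 fold change -0.79), and at 16 weeks had 6.92 ± 3.67 CPM in KO-16 and 17.4 ± 7.08 in WT-16 (SD, n = 5 each; edgeR adjusted p = 0.0512). Pdk4, a kinase that inactivates pyruvate dehydrogenase, had 158 ± 110 CPM in KO-16 and 742 ± 462 in WT-16 (SD, n = 5 each; log2 fold change -2.24, SE 0.49, edgeR adjusted p = 0.0343).

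None of the 8 malate-aspartate shuttle and carrier genes tested passed at 8 weeks or at 16 weeks. Slc25a12, an aspartate-glutamate carrier of heart and muscle, had log2 fold changes of 0.10 (SE 0.06) at 8 weeks and -0.25 (SE 0.12) at 16 weeks. Of the glutamine and glutamate genes, 0 of 13 rose and 2 fell at 8 weeks, the glutamate transporter Slc1a1 (log2 fold change -0.55) and proline dehydrogenase, Prodh (-0.31). None of 12 passed at 16 weeks, where Slc1a3, a further glutamate transporter, was nearest at 9.08 ± 4.5 CPM in KO-16 and 2.87 ± 1.24 in WT-16 (SD, n = 5 each; log2 fold change 1.56, edgeR adjusted p = 0.0507). Of the other transaminases 0 of 7 rose and 2 fell at 8 weeks. They were Abat, of GABA breakdown, (log2 fold change -0.53), and the kynurenine aminotransferase Kyat3 (-0.29), and Kyat3 had a log2 fold change of -0.66 at 16 weeks (edgeR adjusted p = 0.0622), where none of 6 passed.

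Of 14 further genes that feed or drain the cycle, 2 rose and 1 fell at 8 weeks, and 1 rose and 1 fell at 16 weeks. Adssl1, the muscle adenylosuccinate synthase, which uses aspartate in the purine nucleotide cycle, rose at both times. It had 62.9 ± 8.15 CPM in KO-8 (SD, n = 4) and 40.0 ± 4.23 in WT-8 (SD, n = 5; log2 fold change 0.66, SE 0.09, edgeR adjusted p = 0.000559). Its 16-week values were 57.4 ± 24.4 CPM in KO-16 and 22.9 ± 4.75 in WT-16 (SD, n = 5 each; log2 fold change 1.34, SE 0.26, edgeR adjusted p = 0.0274). Pck2, the mitochondrial phosphoenolpyruvate carboxykinase, rose by 0.39 at 8 weeks, and Suclg2, a subunit of succinyl-CoA ligase, fell by 0.23. Mut, the methylmalonyl-CoA mutase that lets propionate carbon enter the cycle, had 83.2 ± 30 CPM in KO-16 and 151 ± 16.2 in WT-16 (SD, n = 5 each; log2 fold change -0.85, SE 0.21, edgeR adjusted p = 0.0433).

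Among the 7 biotin enzymes and enzymes of biotin use beside Pcx, Acaca, the acetyl-CoA carboxylase of fatty acid synthesis, rose at 8 weeks (log2 fold change 0.44) and at 16 weeks (1.26, edgeR adjusted p = 0.0402). Mccc1, of leucine breakdown, fell by 0.80 at 16 weeks and was the only enzyme of this list called lower then. The median log2 fold change of the 7 enzymes was -0.35 at that time, so estimates below 0 were not limited to Mccc1. Of the NADPH makers other than malic enzyme none rose, 2 of 12 fell at 8 weeks and 1 of 11 fell at 16 weeks. Aldh1l2, a mitochondrial folate enzyme, fell at both times, with 6.67 ± 0.875 CPM in KO-8 (SD, n = 4) and 10.9 ± 1.10 in WT-8 (SD, n = 5), and 4.39 ± 2.72 CPM in KO-16 and 11.3 ± 1.10 in WT-16 (SD, n = 5 each). Its log2 fold changes were -0.70 (edgeR adjusted p = 0.00115) at 8 weeks and -1.37 (edgeR adjusted p = 0.0385) at 16 weeks. Idh2, the mitochondrial NADP-dependent isocitrate dehydrogenase, fell by 0.35 at 8 weeks. Of the genes that use asparagine or aspartate none of 7 passed at 8 weeks and none of 5 at 16 weeks, where Asns, asparagine synthetase, had a log2 fold change of 1.13 (SE 0.42, edgeR adjusted p = 0.125).

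**Figure D5:**
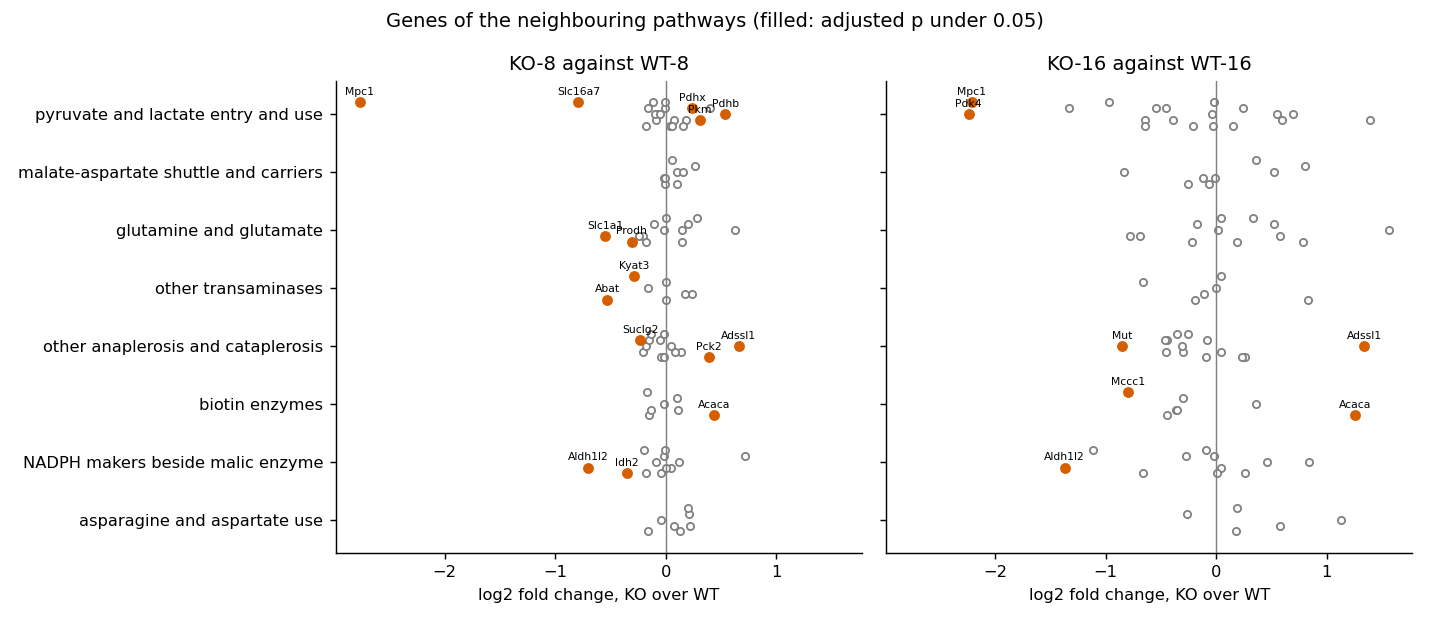
Log2 fold change of KO over WT (horizontal axis) of the genes in each neighbouring list (rows) at 8 weeks (left) and 16 weeks (right); filled, named points passed an adjusted p of 0.05. Mpc1 is the farthest point at 8 weeks, at -2.77, and Adssl1, Acaca and Aldh1l2 are filled on the same side at both times.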

How the data were processed

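The deposited values were counts of read pairs per gene, made by the authors with featureCounts 1.6.3 in paired, reverse-stranded, largest-overlap mode on GRCm38 with Ensembl 96, per the file headers. Per the submitters' processing notes, STAR, RSEM, SAMtools, FastQC and cutadapt 1.16 were used too, with no role stated. Each 16-week sample had 2 files, whose counts were summed here. Of 55536 gene IDs, 55450 were paired with a symbol by matching GENCODE M21.

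KO was compared with WT within each time with edgeR 4.0.16 (R 4.3.3; quasi-likelihood test, TMM factors, filterByExpr, Benjamini-Hochberg adjustment over all genes tested, threshold 0.05), and the difference between times with an interaction term over all 19 libraries. The SE of a log2 fold change is its size divided by the root of the F statistic. CPM are counts over the library total times the TMM factor (0.4554 to 1.475). Family shares of counts per exon length were compared with exact permutation tests over libraries (scipy 1.17.1). In simulated data the 16-week comparison of 12597 genes recovered 22.4%, 56.7% and 90.9% of genes changed 1.5-, 2- and 4-fold. It made 9 false calls in 122. The 8-week comparison of 15173 genes recovered 65.7%, 86.6% and 100%, with 7 false calls in 175. The difference between times over 15503 genes recovered 7.46%, 50.7% and 81.8%, with 4 false calls in 97. Whether these rates hold for the real libraries was not tested.

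The members and the gene lists were chosen with earlier results of these data known. All members, Mpc1 and up to 3 genes with the smallest adjusted p per list and time were eligible to be named. Alternatives were DESeq2 1.42.0, voom of limma 3.58.1 with and without quality weights, RLE or upper-quartile factors, a minimum of 1 CPM in at least 4 libraries or no filter, thinning, mitochondrial and ribosomal RNA genes left out, all 19 libraries in 1 fit, 16-week covariates and subsets, either 16-week file by itself, and leaving out each library. Transcript length for the shares was added after the data were seen. Promoter sequences are RefSeq's, with a start for 7 of the 9 members.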

Additional observations from a re-analysis of the deposited data

Results flagged for a closer look

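Me2 in replicate 1 of WT-8 stood at 7.44 CPM, against 5.77 to 6.19 CPM in the other WT-8 libraries, a gap of 0.749 of the group's range. It was the only value that stood apart among 56 groups of 4 or 5 libraries examined (9 genes and 5 shares in 4 groups), and chance marks about 1 in 20 such groups.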

How the results depend on the processing

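At 8 weeks Gpt2 stayed lower and Got1 higher and both passed in 18 of 19 alternatives, the exception being the fit to all 19 libraries, which called 0 members and 31 genes in place of 2 and 1245. No filter called 5 members and 1689 genes, DESeq2 4 and 1349, and limma-voom with quality weights 4 and 1168, and thinning called 828 genes. At 16 weeks no filter called 1034 genes and 2 members (Me2, Gpt2), DESeq2 1166 and 2 (Me2, Gpt2), limma-voom with quality weights 2514 and 3, and all 19 libraries 3181 and 3 (Me1, Me2 and Gpt2 in both), against 356 and 0. The 18S covariate called 28 genes and leaving out the male libraries 10. Leaving out each library in turn called 29 to 1856 genes and 0 to 2 members (Me2 and Gpt2 without replicate 1 of KO-16, Me2 without replicate 5), all 10 counts of genes moving by over 1.5 times. For the difference between times, no filter called 43 genes, DESeq2 30 and quality weights 527, and leaving out each library 0 to 613 genes (613 without replicate 1 of KO-16, 114 without replicate 5) and 0 to 1 member (Gpt2).

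Some log2 fold changes near 0 changed sign and none of these passed. At 16 weeks Pcx was -0.06 with the 18S covariate and -0.04 in the later files, and Got1 was 0.00 with RLE factors, DESeq2, limma-voom and all 19 libraries, -0.01 with the 18S covariate and -0.04 in libraries over 20% 18S. Leaving out each library, the 16-week ranges were -0.01 to 0.33 for Pcx, -0.12 to 0.03 for Me3, -0.05 to 0.08 for Got1 and -0.11 to 0.00 for Glud1. The 8-week range was -0.19 to 0.01 for Me1, and the ranges of the difference between times were -0.01 to 0.14 for Me3 and -0.07 to 0.00 for Got2. The 8-week share differences ranged from -2.83 to 0.41 points for Me1 and from -1.61 to 0.00 for Me3. The causes were not tested. The other 763 of 787 differences under alternatives kept their sign. No paired analysis was possible because no replicate number is shared between groups in the labels. Low counts of Me2, Pcx and Gpt in the shallow 16-week libraries, 18S RNA, sex and cell makeup limit the 16-week estimates.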
